A study of Homo sapiens with 17 samples.

Results

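NAT10 and THUMPD1 encode the enzyme that writes N4-acetylcytidine (ac4C) and its tRNA adaptor. Their 2 rows were taken by gene symbol from a table of 23368 genes and followed across all 6 groups of an acRIP-seq experiment, in which an antibody against ac4C captures acetylated RNA for sequencing. The cells were HEK293T, a line derived from human embryonic kidney. Poly(A) RNA came from cells labelled WT and from cells transfected with siRNA against TDP43 (siTDP43, genotype label siTARDBP), the RNA-binding protein encoded by TARDBP. Each genotype gave 3 fractions, namely the input, the RNA captured by the anti-ac4C antibody (IP) and that captured by a rabbit isotype control (IgG). There were 17 libraries, with n = 3 in every group except WT IgG, where n = 2. The labels give WT no control siRNA, so transfection, any batch of preparation and the knockdown cannot be told apart. No source states that replicates came from separate cultures, and the p-values therefore measure the spread between libraries.

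NAT10 is a nucleolar acetyltransferase that uses acetyl-CoA and ATP to acetylate cytidine, and is best known for ac4C in 18S ribosomal RNA and in serine and leucine tRNAs. THUMPD1 carries a THUMP domain, has no acetyltransferase activity of its own and presents tRNA to NAT10. For 18S rRNA, NAT10 is guided by the box C/D snoRNA SNORD13 and works within the assembly of the small ribosomal subunit. TDP43 binds RNA, with a preference for UG-rich stretches.

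NAT10 lies on hg19 chromosome 11, plus strand, from 34127111 to 34168458, with 29 exon blocks that sum to 4041 bases. THUMPD1 lies on chromosome 16, minus strand, from 20744989 to 20753199, with 4 exon blocks of 4413 bases. The transcripts differ in build. The 1025-residue NAT10 protein takes up most of its canonical transcript, and the 3′UTR makes up 18.0%. THUMPD1 has 353 residues and a 3′UTR of 3216 bases, which is 73.8% of its transcript. Exonic GC was 51.7% in NAT10, at percentile 56.7 of 18983 genes, and 39.9% in THUMPD1, at percentile 12.3. No exon of another gene overlapped either gene in the table. Upstream of NAT10, CAPRIN1 ended 2953 bases away. THUMPD1 has a processed pseudogene, THUMPD1P1, on chromosome 21 (30274101 to 30276019), which had no row in the table. It matched the transcript over 626 bases at 91.9% identity, 283 at 89.4% and 172 at 84.3%. Reads shared with it could be lost from the THUMPD1 count.

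Perfect TGTGTG runs were searched on the sense strand of the exons because TDP43 prefers such repeats. Both transcripts held 2 sites. Of 18983 genes, 63.0% held at least 1, and of the 3397 genes with 3500 to 5000 exon bases, 79.4% did. Of 2 other motifs searched in the same way, neither transcript held a site. They were TGTGCG, a TDP43 motif in the paper, and TCCCAGCT, its leading ac4C motif in WT. TGTGCG was in 29.3% of all genes and 36.1% of those with 3500 to 5000 exon bases. For TCCCAGCT these shares were 18.7% and 24.4%. The sites are shown in sense orientation from hg19 with the run in capitals. The first NAT10 site (chr11:34133746-34133770) is coding and the second (chr11:34167864-34167893) lies in the 3′UTR. Both THUMPD1 sites (chr16:20748087-20748116 and chr16:20747677-20747706) lie in the 3′UTR.
NAT10 coding site: taccttcggcaTGTGTGTGctgcag
NAT10 3′UTR site: ggcctctgggccTGTGTGtctgtgagctca
THUMPD1 first 3′UTR site: cagttttttattTGTGTGctgcattatgct
THUMPD1 second 3′UTR site: ttttttaacattTGTGTGtaatatagctga
A match of letters describes the transcript and does not show that the protein binds there.

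The knockdown used 2 siRNAs, whose designed sense strands are given because any match to the writers bears on the reading of their levels. Both matched TARDBP exons over all 19 bases. Capitals mark the 7 sense bases that pair with guide positions 2 to 8.
siTDP43 first sense strand: ggcugguagaaGGAAUUCu
siTDP43 second sense strand: gucacagcgacAUAUGAUa
The longest match in NAT10 was 8 bases for the first and 7 for the second, with 0 seed matches. In THUMPD1 the longest matches were 9 and 8 bases, and each siRNA had 1 seed match in the 3′UTR, at chr16:20746364-20746392 and chr16:20747125-20747153.
THUMPD1 site of the first seed: accttgccagaGGAATTCttgaaatgttt
THUMPD1 site of the second seed: gatgatatgtcATATGATgcaaaaaaggt
Such seed matches were common. Among genes of 3500 to 5000 exon bases, 23.7% held the first and 21.5% the second.

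The inputs held 24542434 to 36583436 counts each. WT pull-downs were deeper than those of siTDP43, with 19615316 to 21066215 counts against 8610070 to 15736165 for the IP, and 9022250 to 9466855 against 3013989 to 3436811 for IgG. As the check of the labels, TARDBP mRNA was read in CPM (counts per 1000000, scaled by the trimmed mean of M-values, TMM, over all libraries). It had 150, 158 and 152 CPM in WT input and 99.1, 102 and 106 CPM in siTDP43 input. This left 67.2% of the WT level (edgeR quasi-likelihood adjusted p 6.55e-13). Of 14036 genes tested in the input, 32.5% fell by more and 40.6% passed as lower. The fall therefore does not set TARDBP apart from other genes. Of the HEK293 line genes, NEFM and NEFL lay between 40.8 and 193 CPM in all inputs, while PTPRC, COL1A2, KRT5 and HBB, markers of leukocytes, fibroblasts, keratinocytes and erythroid cells, were at 0. Bulk RNA cannot tell fewer cells with a transcript from less of it per cell.

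In the input RNA, both writer mRNAs were higher in siTDP43 than in WT. The paper compared TDP43 knockdown with a control siRNA by RT-qPCR and western blot, and described NAT10 expression as slightly altered. NAT10 had 50.8, 52.5 and 51.8 CPM in WT input and 117, 108 and 111 CPM in siTDP43 input. Every siTDP43 library lay above every WT library, and the WT libraries were close together. The increase was 2.18-fold, a log2 change of 1.12 (SE 0.0503, adjusted p 5.12e-19 by edgeR's quasi-likelihood test with Benjamini-Hochberg adjustment, used for all adjusted p-values here). THUMPD1 had 23.2, 23.2 and 22.6 CPM in WT input and 41.3, 35.5 and 38.2 CPM in siTDP43 input. Its groups did not overlap either, and it rose 1.68-fold (log2 0.75, SE 0.0732, adjusted p 1.11e-10). The input as a whole changed widely. Of 14036 genes tested, 79.2% passed in either direction, 38.6% were higher, 40.6% were lower and 15.5% were higher by over 2-fold, so a passing test is common here. The NAT10 change exceeded that of 87.1% of genes and the THUMPD1 change that of 77.6%, with a median over all genes of -0.05. The share of genes with separate groups was not counted, here or later, so non-overlap does not set either gene apart.

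Change in the input moved with GC content over all genes (Spearman rho -0.32 over 13905 genes, which are not independent replicates). The trend at the GC content of THUMPD1 was 0.29 and at that of NAT10 -0.07 on the log2 scale. With the trend removed from each library, the THUMPD1 change was 0.45 and the NAT10 change 1.19, and both still passed. The neighbour CAPRIN1, a cytoplasmic RNA-binding protein gene, also rose by a log2 change of 0.552, and ABTB2 on the other side rose by 0.545 with overlapping groups. Of the neighbours of THUMPD1, ACSM3 fell by 2.91 and ACSM1 had 0 counts.

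Compared per length, NAT10 was the more abundant mRNA in every group. In WT input its level was 12.8 ± 0.203 FPKM (counts per kilobase of exon per 1000000 scaled counts, SD, n = 3), against 5.22 ± 0.0782 for THUMPD1. In siTDP43 input these levels were 27.7 ± 1.1 and 8.69 ± 0.648 FPKM. Among genes with counts, NAT10 stood at FPKM percentiles 75.1 to 75.8 in WT input and 81.3 to 82.2 in siTDP43 input. THUMPD1 stood at percentiles 62.4 to 63 in WT input and 66.6 to 68.8 in siTDP43 input.

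In the IP, THUMPD1 rose and NAT10 did not pass the test. NAT10 had 50.5, 64.0 and 60.1 CPM in WT IP and 60.4, 51.7 and 64.1 CPM in siTDP43 IP. The libraries of both genotypes were interleaved, and the change was -0.001 on the log2 scale (SE 0.103, 95% interval -0.22 to 0.22, adjusted p 0.99). This direction rested on the scaling. It was -0.37 with total count scaling and 0.44 with the GC trend removed, and passed in both. THUMPD1 had 19.2, 17 and 18.7 CPM in WT IP and 30, 36.7 and 29.5 CPM in siTDP43 IP. All siTDP43 values were above all WT values. THUMPD1 rose 1.73-fold in the IP (log2 0.79, SE 0.125, adjusted p 1.02e-05), close in size to its rise in the input. Over all genes tested in the IP, 83.1% passed and 36.7% were higher, with a median of -0.23, and the GC trend at THUMPD1 was 0.44.

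The IgG libraries were the shallowest, and THUMPD1 alone of the pair passed there. NAT10 had 81.7 and 56.3 CPM in WT IgG and 65.8, 78.1 and 63.4 CPM in siTDP43 IgG. The siTDP43 values lay inside the WT range (log2 0.03, SE 0.18, 95% interval -0.36 to 0.41, adjusted p 0.898). That value turned to -0.43 with total count scaling and passed. THUMPD1 had 36.5 and 31.0 CPM in WT IgG and 15.4, 24.3 and 15.7 CPM in siTDP43 IgG, from 42, 60 and 44 counts. The groups did not overlap, and THUMPD1 fell to 55.5% of WT (log2 -0.85, SE 0.265, adjusted p 0.00779), where 79.9% of genes passed and 45.1% were lower. The fall no longer passed without the first WT IgG library (-0.73) or with the GC trend removed (-0.27), the trend at its GC content being -0.48.

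**Figure D1:**
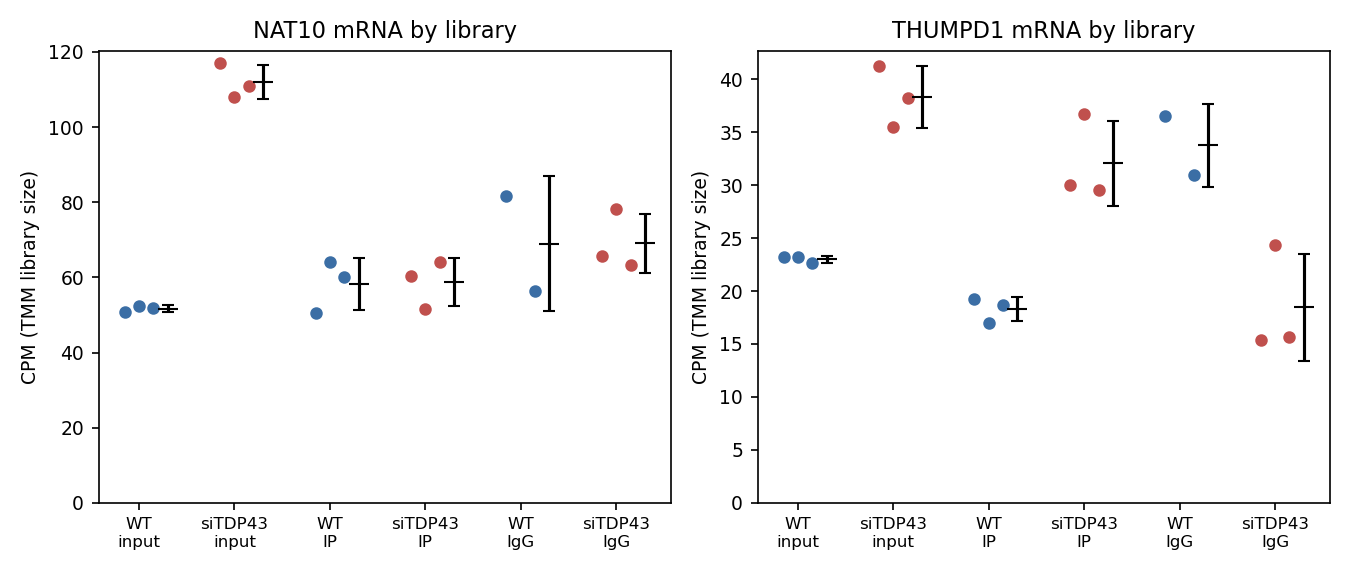
Counts per 1000000 (CPM, y axis, TMM library sizes) of NAT10 (left) and THUMPD1 (right) in each of the 17 libraries by group (x axis, WT blue, siTDP43 red), with the mean and SD as black bars. The 3 siTDP43 input libraries sit at 108 to 117 CPM for NAT10, above all others, while THUMPD1 is higher in siTDP43 than in WT in input and IP and lower in IgG.

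Ordered by mean, NAT10 ran from WT input (51.7 ± 0.821 CPM) through WT IP (58.2 ± 6.97), siTDP43 IP (58.7 ± 6.37), WT IgG (69.0 ± 18) and siTDP43 IgG (69.1 ± 7.89) to siTDP43 input (112 ± 4.45). Neighbours in this order overlapped except at the last step, from siTDP43 IgG to siTDP43 input. THUMPD1 ran from WT IP (18.3 ± 1.14 CPM) through siTDP43 IgG (18.5 ± 5.04), WT input (23.0 ± 0.345), siTDP43 IP (32.1 ± 4.03) and WT IgG (33.7 ± 3.93) to siTDP43 input (38.3 ± 2.86). Only the step from WT input to siTDP43 IP separated neighbours.

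Whether the writer mRNAs themselves were taken up by the anti-ac4C antibody was read from IP against input and against IgG within each genotype. Neither mRNA was over 2-fold above both controls in WT or in siTDP43, a mark that 15.6% of genes passed in WT and 10.3% in siTDP43. In WT, NAT10 had a log2 change of IP over input of 0.18 (SE 0.0953, adjusted p 0.0839) and of IP over IgG of -0.29 (SE 0.113, adjusted p 0.0229). The second of these rested on the first WT IgG library. Without it the value was 0.001, and it also lost its call without the first WT IP library (-0.20), while with the GC trend removed it was -0.96 and passed. THUMPD1 was lower in WT IP than in input (-0.32, SE 0.0988, adjusted p 0.00468) and than in IgG (-0.92, SE 0.116, adjusted p 1.43e-07). The first of these turned to 0.33 with the GC trend removed, where the trend at its GC content was -0.64. In WT, 84.4% of genes passed in IP against input, 42.3% of them higher and 42.1% lower as a share of all tested, and 81.1% in IP against IgG.

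In siTDP43, NAT10 was lower in IP than in input (-0.78, SE 0.101, adjusted p 3.72e-07), and no library of one overlapped the other. Its IP was also below IgG (-0.31, SE 0.117, adjusted p 0.0235), with overlapping libraries. That call was lost without the second siTDP43 IP library (-0.22) and without the second siTDP43 IgG library (-0.21), while with the GC trend removed the value was -0.88 and passed. THUMPD1 had -0.10 in IP over input (SE 0.142, 95% interval -0.40 to 0.19, adjusted p 0.518). That value passed in opposite directions elsewhere, at -0.44 with total count scaling, -0.39 with limma on FPKM and 0.33 with the GC trend removed. THUMPD1 was higher in IP than in IgG (0.73, SE 0.187, adjusted p 0.00139). With the GC trend removed this was -0.24, against a trend of 0.66 at its GC content. The background was 78.9% of genes passing for IP against input and 73.5% for IP against IgG.

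IgG against input gave the background of the pull-down. Both mRNAs were above input in WT IgG, NAT10 by 0.47 (SE 0.112, adjusted p 0.000544) and THUMPD1 by 0.60 (SE 0.113, adjusted p 3.81e-05), where 83.3% of genes passed. For NAT10 this fell to 0.17 and did not pass without the first WT IgG library. Both mRNAs were below input in siTDP43 IgG, NAT10 at -0.47 (SE 0.112, adjusted p 0.000604) and THUMPD1 at -0.84 (SE 0.182, adjusted p 0.000241), where again 83.3% passed. With the GC trend removed, the siTDP43 values turned to 0.19 for NAT10 and 0.57 for THUMPD1, and the WT values were 1.01 and 1.26. The method notes say that RNA in the IP and IgG was too little to quantify, so all of these levels are relative within a library.

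The difference between genotypes was tested directly as an interaction over all 17 libraries. For NAT10, IP over input was lower in siTDP43 than in WT by 1.10 on the log2 scale, at -1.10 (SE 0.146, adjusted p 2.78e-08). IgG over input differed by about as much, -1.14 (SE 0.168, adjusted p 1.92e-07). The change of IP over IgG was 0.04 (SE 0.173, 95% interval -0.32 to 0.39, adjusted p 1). An interaction over input is by construction the change in the pull-down less the change in the input. In the separate fits, the NAT10 change was 1.12 in input, -0.001 in IP and 0.03 in IgG. Both interactions over input thus contain its rise in the input, and do not by themselves show altered capture of NAT10 mRNA. What lay behind the input rise was not tested.

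THUMPD1 gave the other pattern. Its change of IP over input was 0.07 (SE 0.176, 95% interval -0.29 to 0.43, adjusted p 0.755), that of IP over IgG 1.71 (SE 0.223, adjusted p 1.75e-08), and that of IgG over input -1.64 (SE 0.218, adjusted p 2.25e-08). For THUMPD1, both interactions that passed included the IgG libraries, and what lay behind them was not tested. With the GC trend removed, the IP over IgG value was 0.68 and the IgG over input value -0.61, both still past the threshold, as were -0.66 and -0.69 for NAT10 in IP and IgG over input. Over all 15165 genes tested, 67.8%, 60.8% and 64.4% passed for IP over input, IP over IgG and IgG over input.

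**Figure D2:**
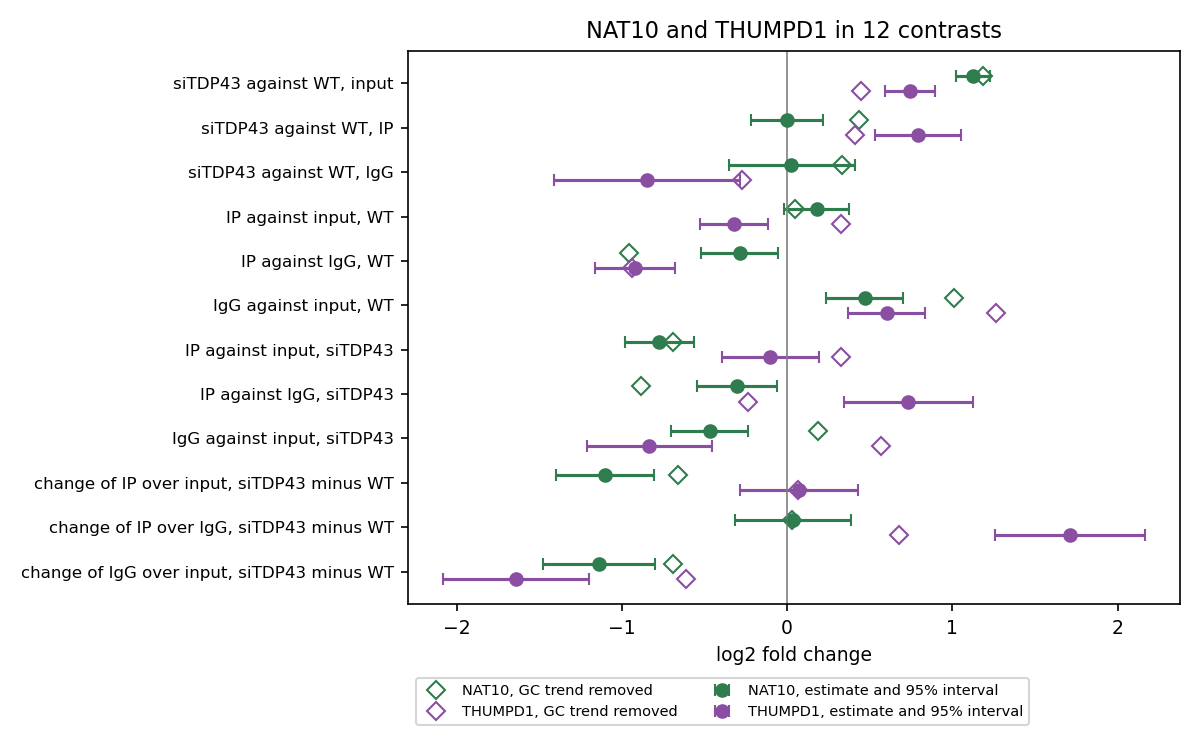
Log2 fold change (x axis) of NAT10 (green) and THUMPD1 (purple) in each of 12 contrasts (y axis), as the edgeR estimate with its 95% interval (filled circles) and as the estimate after a GC trend was removed from each library (open diamonds). The input rises of 1.12 and 0.75 keep their sign, whereas the siTDP43 IgG against input values of both genes cross 0.

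The balance of the writers was followed as the ratio of NAT10 to THUMPD1 counts per kilobase of exon within each library, which needs no library scaling. It was 2.39, 2.46 and 2.50 in WT input and 3.09, 3.31 and 3.19 in siTDP43 input. The ratio was 2.87, 4.10 and 3.50 in WT IP and 2.20, 1.54 and 2.37 in siTDP43 IP. In IgG it was 2.44 and 1.98 in WT and 4.65, 3.51 and 4.42 in siTDP43. In each fraction the genotypes did not overlap, and the IP ran opposite to the other two. The log2 difference, siTDP43 minus WT, was 0.38 in input, -0.79 in IP and 0.92 in IgG. An exact two-sided permutation test gave p = 0.1 for each, the smallest p that these group sizes allow, and 0.129 after adjustment over the 9 comparisons made. No comparison could therefore pass 0.05, and how often ratios of other genes separate was not counted. With the GC trend removed, the IP difference was 0.04.

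**Figure D3:**
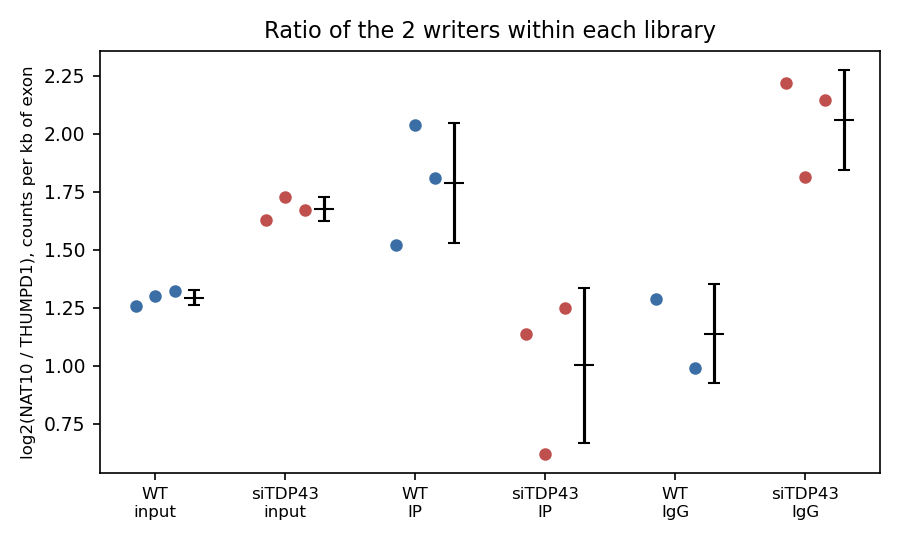
Log2 ratio of NAT10 to THUMPD1 counts per kilobase of exon (y axis, which does not start at 0) in each library by group (x axis, WT blue, siTDP43 red), with mean and SD as black bars. The ratio is higher in siTDP43 than in WT in input and IgG and lower in IP, with no overlap in any fraction.

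The promoters are shown as sequence context only. They are the 250 bases before the transcription start in the RefSeq table (GRCh38.p14), in gene orientation, at chr11:34105379-34105628 for NAT10 and chr16:20741819-20742068 for THUMPD1. Capitals mark matches among 7 motifs searched on both strands.
NAT10 promoter: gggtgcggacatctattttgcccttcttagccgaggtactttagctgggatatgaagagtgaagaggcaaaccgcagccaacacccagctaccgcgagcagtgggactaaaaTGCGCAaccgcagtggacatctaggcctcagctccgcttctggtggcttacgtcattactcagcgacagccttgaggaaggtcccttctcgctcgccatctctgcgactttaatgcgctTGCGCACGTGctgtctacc
THUMPD1 promoter: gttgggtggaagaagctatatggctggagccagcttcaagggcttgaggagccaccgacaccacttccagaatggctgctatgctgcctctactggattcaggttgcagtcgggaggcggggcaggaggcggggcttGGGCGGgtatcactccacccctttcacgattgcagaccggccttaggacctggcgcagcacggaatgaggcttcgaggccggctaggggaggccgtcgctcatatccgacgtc
The NAT10 window held 2 NRF1-type core sites (TGCGCA), present in 6.89% of 35116 promoters, and 1 E-box (CACGTG), present in 6.34%, which overlapped the second of them. The THUMPD1 window held 1 GC box (GGGCGG), present in 42.64%. Neither held an ETS site (CCGGAAG, 8.52%), a CRE-type site (TGACGTC, 3.12%), a CCAAT box (CCAAT, 32.01%) or a YY1 site (AAGATGGCG, 0.65%), so the windows shared none of the 7. There were 16 CpG dinucleotides in the NAT10 window and 15 in that of THUMPD1, against a median of 11. A match of letters does not show that a factor binds there, and a role of the promoters in the input levels was not tested.

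Genes of the writers' pathways were counted in the input as context, from lists of known functions. Of 72 tRNA modification enzymes tested, 52 were higher, 11 lower and 9 did not pass, against 38.6% higher and 40.6% lower over all genes, and the median log2 change was 0.48 against -0.05. TRUB1 (2.56) and TRUB2 (2.08), both pseudouridine synthases, and LCMT2 (1.95), of wybutosine synthesis, had the largest rises among genes that averaged 100 counts or more, while PUSL1 (-1.57), PUS1 (-1.27) and YRDC (-0.80) fell. Another list held 53 genes of the small subunit processome, the particle in which 18S rRNA matures, and of later assembly of the small ribosomal subunit. Of these, 37 were higher, 9 lower and 7 did not pass, with a median of 0.59. HEATR1 (1.96), UTP14A (1.86) and TSR1 (1.65) rose, and AATF (-1.24), NHP2L1 (-0.99) and NOC4L (-0.79) fell. NAT10 at 1.12 and THUMPD1 at 0.75 lay above both medians, except that THUMPD1 at 0.45 with the GC trend removed was below the tRNA enzyme median of 0.54 in that setting. Both medians stayed between 0.39 and 0.60 under the other scalings and with the GC trend removed.

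The lists that follow are read against the same 38.6% higher and 40.6% lower over all genes. The 4 THUMP and tRNA methyltransferase genes were mixed. THUMPD3 (0.75) and THUMPD2 (0.29) rose, and TRMT11 (-0.11) and TRMT112 (-0.13) fell slightly. The count was 2 higher and 1 lower with DESeq2 size factors, and 1 higher and 1 lower with the GC trend removed. These 4 genes also stood in the tRNA list. Of 26 tested N-acetyltransferases that act on proteins, histones or small molecules, 13 were higher and 9 lower, with a median of 0.15, and 11 were higher and 11 lower with total count scaling. NAT1 (1.53), HAT1 (1.09) and NAA40 (1.06) rose, and SAT1 (-3.74), NAT14 (-1.99) and NAA30 (-1.76) fell. Of 13 genes of acetyl-CoA supply, 9 were higher and 3 lower, with a median of 0.47. ACLY (0.87), which makes cytosolic acetyl-CoA from citrate, rose, as did ACAT2 (1.62) and DLAT (1.29), whereas the mitochondrial citrate carrier SLC25A1 (-1.93), ACSS1 (-1.30) and CRAT (-0.96) fell.

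Genes reported as NAT10 partners mostly moved against it. Of 6 tested, 1 was higher and 5 were lower, with a median of -0.65. TARDBP, the siRNA target, was among the lower, and its fall was set by the design. With the GC trend removed, 1 was higher and 4 were lower, with a median of -0.54. The splicing factor HNRNPM rose (1.41), and the poly(C)-binding proteins PCBP2 (-1.33) and PCBP1 (-0.82) and the deacetylase SIRT7 (-0.73) fell, beside TARDBP (-0.57), the knocked-down gene. SNORD13 had no row under that name. Of 15 core enzymes of other RNA modifications, 9 were higher and 5 lower, with a median of 0.60. METTL16 (1.39), METTL14 (1.25) and NOP2 (1.17) rose, and ALKBH5 (-0.93), ADARB1 (-0.63) and NSUN5 (-0.41) fell.

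**Figure D4:**
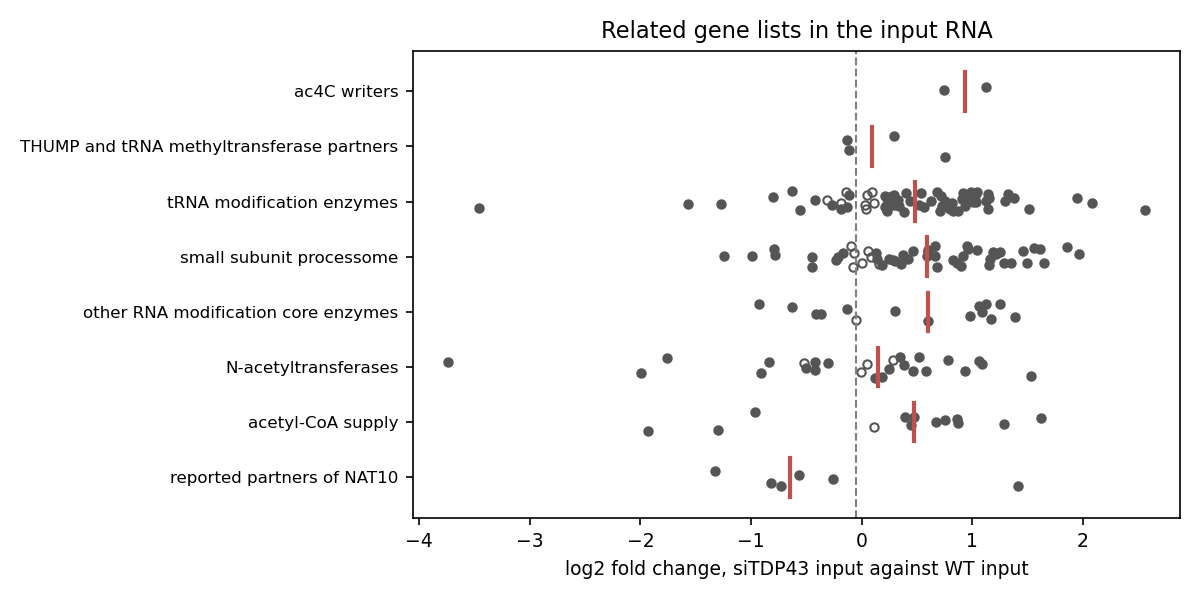
Log2 fold change in the input, siTDP43 against WT (x axis), of each tested gene in 8 lists (y axis, points spread vertically for sight). Filled points had an adjusted p under 0.05, open points did not, red bars are list medians and the dashed line is the median of all genes at -0.05. Both ac4C writers lie to the right of it, whereas the reported partners of NAT10, the siRNA target TARDBP among them, lie mostly to the left.

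Across the 17 libraries, the genes whose log2 CPM was most like that of NAT10 among 3440 genes with a mean of at least 100 counts in every group were SNRNP200 (Pearson r 0.951), GAPVD1 (0.925), KIF23 (0.904), ACTB (0.893) and CORO1C (0.886). For THUMPD1 they were NIP7 (0.909), NSL1 (0.886), CHEK2 (0.882), MID1 (0.877) and SUPT7L (0.875). NAT10 and THUMPD1 correlated with each other at 0.537, and NAT10 stood at position 473 among the genes ranked by likeness to THUMPD1. The points share library, depth and group, and these values describe the 17 libraries with no test.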

How the data were processed

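The authors trimmed reads with Trim Galore 0.6.7, aligned them with STAR 2.7.10a to hg19 and counted them per gene with featureCounts 2.0.2 (versions from the submitters' processing notes, whose build field differs from the hg19 of the methods). Gene positions in the table matched hg19 here, with all exons of 23093 genes inside its chromosomes. The deposited values are raw counts. Low counts (1 to 20) were even in 81.3 to 95.9% of cases, so mates appear to have been counted singly, and no molecular identifiers were used. Intervals and tests do not measure molecules. Libraries were made by Smart-seq2 from oligo(dT)-primed RNA.

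Counts were tested with edgeR 4.0.16 (R 4.3.3), TMM, filterByExpr with a minimum count of 10, and two-sided quasi-likelihood F tests at an adjusted p under 0.05 over all genes tested. Inputs, IPs and IgGs were fitted apart, each genotype in 1 fit and interactions over 17 libraries. FPKM was computed from TMM sizes and exon length. No library duplicated another (chi-square per degree of freedom 3.26 to 9.43). Alternatives used DESeq2 1.42.0, limma 3.58.1 on log2(FPKM + 1), other scalings and filters, all groups in 1 fit, a replicate block, a GC trend removed (lowess span 0.3), halved counts and each library left out. Fits were tested on simulated data with 100 genes changed 2-fold and 100 changed 4-fold. All 4-fold changes were recovered. For the interaction of IP over input, 66% of 2-fold changes were recovered, against 91 to 95% in the other comparisons simulated. False calls made up 2.99 to 6.25% of calls. Far fewer genes were changed than pass here, so the simulation does not show how the fits behave under wide change. Of each list, the 3 largest rises and falls were named among genes that passed, averaged 100 counts or more and had groups without overlap. The genes and lists were chosen with earlier results of these data known. Spike-in RNA was not analysed here.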

Additional observations from a re-analysis of the deposited data

Results flagged for a closer look

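The difference between genotypes depended on the fraction for both writers, by the interaction test over 17 libraries. For NAT10, the change of IP over input, siTDP43 minus WT, was -1.103 and that of IgG over input -1.14. Both contain the NAT10 rise of 1.124 in the input. Against input, NAT10 had 0.18 in WT IP, which did not pass the test, and -0.776 in siTDP43 IP, which did. For THUMPD1, the change of IP over IgG was 1.711 and that of IgG over input -1.64. THUMPD1 in IP over IgG was -0.923 in WT and 0.734 in siTDP43. Of all genes, 60.8 to 67.8% passed such a test.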

How the results depend on the processing

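Of 24 contrast values for NAT10 and THUMPD1, 10 kept their direction and side of the threshold under every alternative, among them both input rises (0.981 to 1.186 for NAT10, 0.448 to 0.792 for THUMPD1), the THUMPD1 rise in IP (0.361 to 0.843) and the 4 interactions that passed. The cause of the changes below was not tested. For NAT10 in IP, siTDP43 against WT (-0.001), the value was 0.011 with DESeq2, 0.01 with its size factors in edgeR, 0.015 with all groups in 1 fit, -0.365 with total count scaling, -0.339 with limma on FPKM and 0.437 with the GC trend removed. In IgG (0.026) it was -0.429 with total count scaling, -0.005 with no filter, -0.022 with all groups in 1 fit and -0.382 with limma. NAT10 in WT IP over input was 0.283 with total count scaling, 0.246 at a mean of at least 50 counts and 0.192 with counts halved, all past the threshold, and WT IP over IgG was -0.263 with DESeq2, -0.161 with total count scaling and -0.132 with limma, none past it. In siTDP43 IP over IgG it was -0.095 with total count scaling, -0.232 with all groups in 1 fit and -0.089 with limma. Its change of IP over IgG was -0.189 with DESeq2, -0.188 with its size factors and -0.017 at a mean of at least 50 counts. THUMPD1 in WT IP over input was -0.216 with total count scaling and -0.183 with limma, in siTDP43 IP over input -0.44 and -0.391, and its change of IP over input -0.225 and -0.208. With the GC trend removed, THUMPD1 was 0.326 in WT IP over input, 0.328 in siTDP43 IP over input, -0.239 in siTDP43 IP over IgG, 0.567 in siTDP43 IgG over input and -0.272 in IgG between genotypes, and NAT10 was 0.189 in siTDP43 IgG over input. Removing it also turned the ratio of NAT10 to THUMPD1 to 0.041 in IP between genotypes, -0.233 in WT IP over input, -0.004 in WT IP over IgG and -0.266 in siTDP43 IgG over input. Leaving out each library in turn gave, for NAT10, -0.097 to 0.083 in IP and -0.227 to 0.319 in IgG between genotypes, 0.111 to 0.274 in WT IP over input, -0.521 to 0.001 in WT IP over IgG, 0.174 to 0.696 in WT IgG over input, -0.381 to -0.208 in siTDP43 IP over IgG and -0.258 to 0.274 for the change of IP over IgG, and for THUMPD1 -1.095 to -0.725 in IgG between genotypes and -0.035 to 0.123 for the change of IP over input. Without a WT IgG library, the lone one left was assumed to vary like the other groups. Same-numbered libraries did not deviate together (residual correlations -0.034 to 0.08), which cannot exclude that they came from a shared preparation. With the replicate block, NAT10 in IP between genotypes was 0.003, and it changed no other call. Total count scaling moved the median of all genes from -0.23 to -0.60 in IP and from -0.31 to -0.76 in IgG between genotypes, with 28.6% of genes higher and 55.1% lower in IP against 36.7 and 46.5%. THUMPD1 in siTDP43 IgG rested on 42 to 60 counts, the lowest depth of either writer in any group.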

Other observations

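The related gene lists were also counted in the anti-ac4C pull-down of WT cells. Relative to input, 20 of 73 tRNA modification enzymes were higher and 49 lower, with a median log2 change of -0.61, against 42.3% higher and 42.1% lower over all genes and a median of 0.01. Of the 53 genes of the small subunit processome and later assembly, 17 were higher and 30 lower, with a median of -0.35. The WT IP against IgG medians were -0.21 and -0.38, and the IgG against input medians -0.39 and -0.03, for these lists. Of 13 genes of acetyl-CoA supply, 2 were higher and 10 lower, with a median of -1.67, but IgG against input had 0 higher and 12 lower (median -0.91), and IP against IgG 5 higher and 6 lower (median 0.08). The 6 reported partners of NAT10 had 4 higher and 2 lower and a median of 1.94, with 4 higher and 2 lower also in IgG against input (median 2.30) and 2 higher and 2 lower in IP against IgG (median -0.02). The 4 THUMP and tRNA methyltransferase genes were all lower, with a median of -1.01 (IP against IgG -0.91, IgG against input -0.24), and 2 of the 4 were lower with the GC trend removed. In these lists, the medians of IP against input kept their sign under the other scalings and with the GC trend removed. The writers' own values in this comparison were 0.18 for NAT10 and -0.32 for THUMPD1.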
